A study of Mus musculus with 12 samples.

Results

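The genes described here are 9 members of the interleukin-1 (IL-1) system in bulk RNA of 4T1 breast tumors: the ligands Il1a, Il1b and Il18, the natural antagonists Il1rn, Il1r2 and Il18bp, the signalling receptor Il1r1, and the inflammasome genes Nlrp3 and Casp1. They were taken by symbol, with earlier results of these data known, and all 9 were found among the 55401 genes of the expression table. All 9 also passed the filter on low values that left 15504 genes for testing. 4T1 is a mouse mammary carcinoma line, and the tumors were orthotopic grafts of it in Balb/c mice whose age is not given in the labels. Groups of 3 tumors received a control isotype (IgG1-Fc, called control IgG), a recombinant IL10-Fc protein (IL-10-Fc), a CSF1R antibody (aCSF1R) or the IL10/CSF1R (BF10) fusion protein, given from the time tumors reached 100 mm3. The labels give 6 doses and the series text gives 4, so the number behind these tumors is uncertain. All 4 groups carried the same graft, and aCSF1R and BF10 share the CSF1R antibody. Treated tumors were compared with control IgG, and the fusion with each of its parts. Il1b and Casp1 were among the more abundant of the 9 genes, Il1a and Nlrp3 were lowest in the aCSF1R tumors, and the other members showed no such separation from the other 3 groups together.

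IL-1α and IL-1β signal through the same receptor, IL-1R1, and drive neutrophil recruitment, fever and emergency myelopoiesis. IL-1β and IL-18 are made as precursors that caspase-1 cleaves once an inflammasome has assembled, with NLRP3 as a sensor and ASC (encoded by Pycard) as the adaptor. The IL-1 receptor antagonist, the decoy receptor IL-1R2 and the IL-18 binding protein hold these cytokines in check, and macrophages and neutrophils are major sources of several of these proteins in tumors. Transcript levels do not show cleavage or secretion.

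The expression values are TPM (a per-length level relative to the library total), obtained by bringing the FPKM (length- and depth-normalized) values that the authors deposited to the same total in each library. The summed FPKM fell into 2 ranges: 609695 to 648413 in 7 libraries and 782919 to 921581 in 5, namely control IgG replicates 4 and 7, IL-10-Fc replicate 7, aCSF1R replicate 8 and BF10 replicate 6. These sets, called lower-sum and higher-sum, are not a label of the study, and every group held at least 1 library of each. Relative read depth, estimated from the steps between low FPKM values, lay between 0.914 and 1.06 of the median library. BF10 replicate 3 stood apart, with a summed level of 10 neutrophil markers of 19273 TPM against 447 to 3409 TPM in the other 11 libraries. The summed level of 12 macrophage markers was 135 to 952 TPM in aCSF1R tumors and 2234 to 4254 TPM in the other 9. Epithelial tumor markers summed to between 752 and 1682 TPM in higher-sum and between 1860 and 2567 TPM in lower-sum libraries, so epithelial transcripts were present in every library. Endothelial sums (24.6 to 74.0 against 87.5 to 186 TPM) and dendritic cell sums (83.4 to 184 against 260 to 339 TPM) were also lower in higher-sum libraries without overlap. The other marker sums overlapped between the sets. In bulk RNA, fewer cells of a type and less RNA per cell cannot be told apart.

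**Figure D1:**
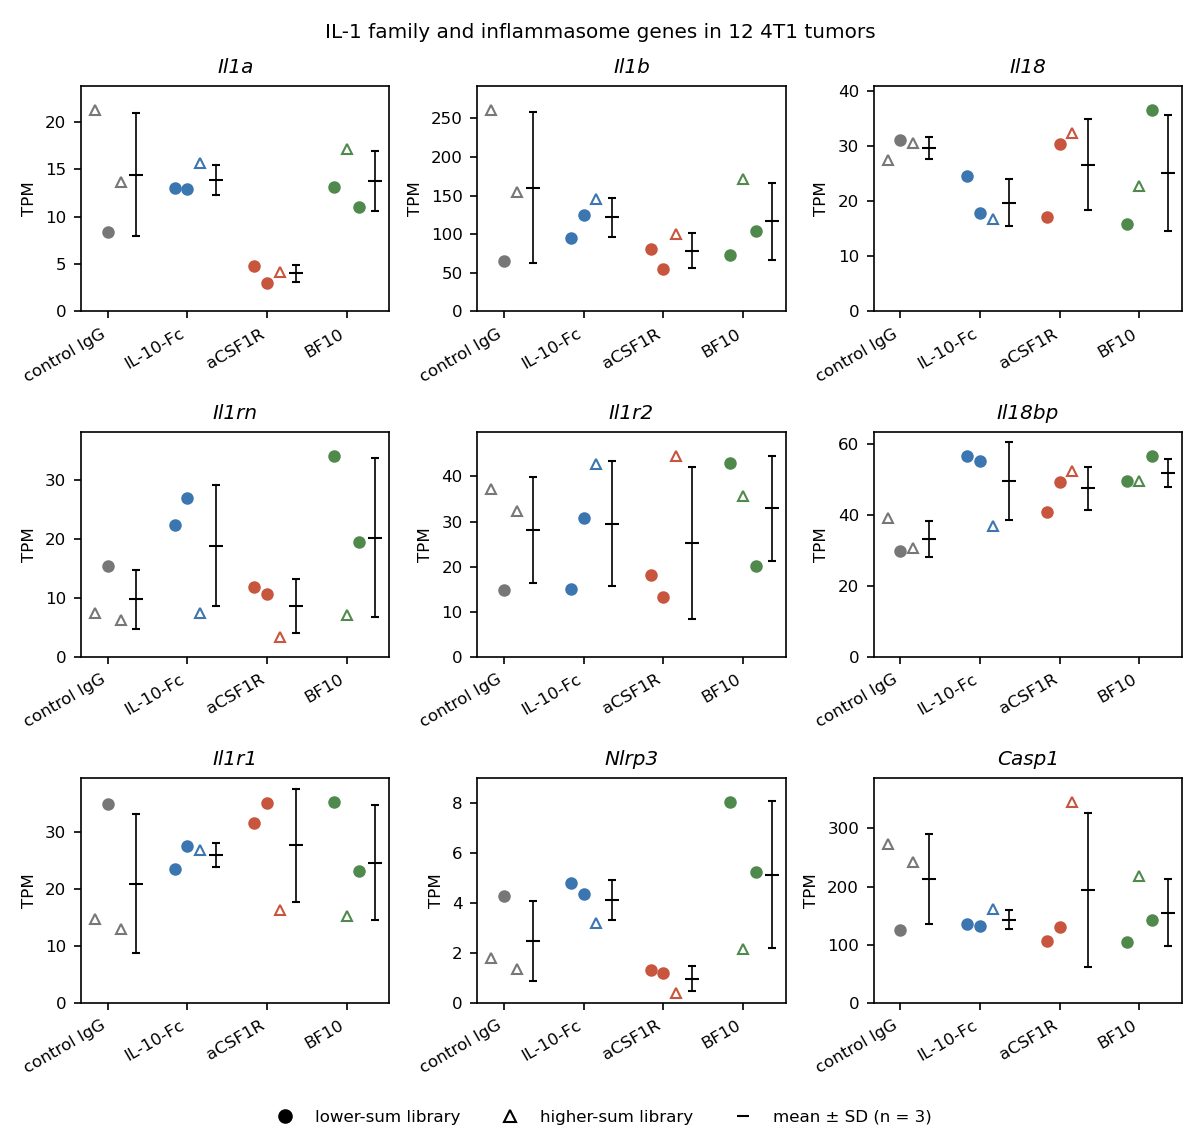
Level of each of the 9 genes (TPM, linear axis from 0) in the 12 libraries by group; circles are lower-sum and open triangles higher-sum libraries, and the black bar gives the mean and SD of 3 tumors. Il1a in aCSF1R tumors, between 3.05 and 4.80 TPM, sits below all 9 other libraries, and the triangles of Il1b, Il1r2 and Casp1 sit high while those of Il1rn and Nlrp3 sit low.

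Il1a encodes IL-1α, a cytokine active without inflammasome cleavage that is released from damaged cells. Its level was 21.2, 8.35 and 13.7 TPM in control IgG replicates 4, 5 and 7, and 13.1, 12.9 and 15.6 TPM in IL-10-Fc replicates 2, 4 and 7. In aCSF1R replicates 4, 6 and 8 it was 4.80, 3.05 and 4.21 TPM. In BF10 replicates 3, 6 and 7 it was 13.1, 17.2 and 11.01 TPM. The 3 aCSF1R tumors were thus the lowest of the 12, and the other 3 groups overlapped. Group means were 14.4 ± 6.47 TPM in control IgG, 13.9 ± 1.54 in IL-10-Fc, 13.8 ± 3.14 in BF10 and 4.02 ± 0.888 in aCSF1R (SD, n = 3 each).

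Nlrp3, the inflammasome sensor that responds to cell damage and ion flux, stood at a lower level than Il1a. It was 1.79, 4.30 and 1.36 TPM in control IgG replicates 4, 5 and 7, and 4.79, 4.35 and 3.22 TPM in IL-10-Fc replicates 2, 4 and 7. In aCSF1R replicates 4, 6 and 8 it was 1.32, 1.21 and 0.412 TPM. In BF10 replicates 3, 6 and 7 it was 8.06, 2.15 and 5.23 TPM. Here too the aCSF1R tumors were the lowest 3 of 12, although control IgG replicate 7 lay only just above them. Group means were 5.14 TPM in BF10, 4.12 in IL-10-Fc, 2.49 in control IgG and 0.981 in aCSF1R. Apart from aCSF1R, the order of the groups differed from that of Il1a. BF10 replicate 3, a lower-sum library with the highest neutrophil and the highest macrophage marker sum, had the highest value.

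Il1a and Nlrp3 were the only members whose 3 aCSF1R values lay below all 9 other libraries, as did 2.46% of all genes tested. Macrophage markers were lower in the same 3 libraries by the values given above, and all 12 of them were detected in every group. Their part in the levels of Il1a and Nlrp3 was not tested.

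The windows of 250 bases before the start sites of these genes are shown with that of Il1b, the neighbour of Il1a, since Il1a and Il1b differed in how far they separated the aCSF1R tumors. On the GRCm38 assembly, Il1a (ENSMUSG00000027399) lies on chromosome 2 at 129299610 to 129309972 and Il1b (ENSMUSG00000027398) at 129364570 to 129371139, both on the minus strand and 54.6 kb apart. Nlrp3 (ENSMUSG00000032691) lies on the plus strand of chromosome 11 at 59541568 to 59566956. These gene positions are those of GENCODE. The sequences come from RefSeq (GRCm38.p6), end just before the start site annotated there and run 5′ to 3′ on the gene's strand, so that the Nlrp3 window holds the first base of the GENCODE gene. The windows are chr2:129309973-129310222, minus strand, for Il1a, chr11:59541319-59541568, plus strand, for Nlrp3, and chr2:129371140-129371389, minus strand, for Il1b. Capitals mark a match to 1 of 4 motifs searched on both strands: PU.1 (GAGGAA), AP-1 (TGANTCA), STAT (TTCNNNGAA) and NF-kB (by name).
Il1a: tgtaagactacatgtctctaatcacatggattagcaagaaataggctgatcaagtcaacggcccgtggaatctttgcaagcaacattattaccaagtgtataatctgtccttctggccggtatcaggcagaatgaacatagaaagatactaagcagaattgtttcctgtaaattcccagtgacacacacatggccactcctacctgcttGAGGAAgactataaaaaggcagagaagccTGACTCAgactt
Nlrp3: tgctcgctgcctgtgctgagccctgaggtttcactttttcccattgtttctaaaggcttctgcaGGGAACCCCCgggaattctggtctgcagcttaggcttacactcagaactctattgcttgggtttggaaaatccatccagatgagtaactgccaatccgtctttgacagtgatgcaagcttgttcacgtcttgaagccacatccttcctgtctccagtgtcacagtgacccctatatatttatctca
Il1b: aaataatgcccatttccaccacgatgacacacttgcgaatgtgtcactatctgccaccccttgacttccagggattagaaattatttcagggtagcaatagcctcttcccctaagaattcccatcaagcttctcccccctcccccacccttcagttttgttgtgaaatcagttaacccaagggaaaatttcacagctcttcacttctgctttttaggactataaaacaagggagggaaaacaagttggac

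The Il1a window held a PU.1 match starting 41 bases and an AP-1 match starting 12 bases before the start site. The Nlrp3 window shown held an NF-kB match 186 bases upstream, and a second annotated start of Nlrp3 had 3 PU.1 matches. None of the 4 motifs was found in the Il1b window. Over 32851 mouse windows of this length, 23.3% held the PU.1 letters, 6.75% AP-1, 7.25% NF-kB and 7.02% STAT, so such matches are common and describe the letters only.

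Il1b, which encodes the cytokine IL-1β, was more abundant than Il1a in every library and did not separate the groups. It was 260, 65.3 and 154 TPM in control IgG replicates 4, 5 and 7, and 95.1, 125 and 145 TPM in IL-10-Fc replicates 2, 4 and 7. In aCSF1R replicates 4, 6 and 8 it was 80.9, 54.7 and 100 TPM, and in BF10 replicates 3, 6 and 7 it was 73.4, 171 and 105 TPM. The control IgG group alone spanned nearly the whole range of the 12 libraries, and its lowest tumor lay among the aCSF1R values.

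Il18 encodes an interferon-γ-inducing cytokine that epithelial cells and macrophages hold as a precursor. It was 27.5, 31.2 and 30.6 TPM in control IgG replicates 4, 5 and 7, and 24.7, 17.8 and 16.9 TPM in IL-10-Fc replicates 2, 4 and 7. The IL-10-Fc values did not overlap those of control IgG. In aCSF1R it ranged from 17.2 to 32.5 TPM and in BF10 from 15.95 to 36.6 TPM, so both groups spread across the values of the others.

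The antagonists showed 3 different patterns. Il1rn, encoding the IL-1 receptor antagonist, was 7.51, 15.4 and 6.34 TPM in control IgG replicates 4, 5 and 7, and 22.3, 26.9 and 7.43 TPM in IL-10-Fc replicates 2, 4 and 7. It was 11.9, 10.6 and 3.35 TPM in aCSF1R replicates 4, 6 and 8, and 34.0, 7.15 and 19.4 TPM in BF10 replicates 3, 6 and 7. Within each group the higher-sum libraries were the low ones, and the groups overlapped.

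Il18bp, encoding the soluble IL-18 binding protein, varied least of the 9 genes, by 1.89-fold between its lowest and highest library. It was 39.2, 29.96 and 30.8 TPM in control IgG replicates 4, 5 and 7, and 49.6, 49.6 and 56.4 TPM in BF10 replicates 3, 6 and 7. It was 40.8, 49.2 and 52.4 TPM in aCSF1R replicates 4, 6 and 8, and 56.6, 55.0 and 36.8 TPM in IL-10-Fc replicates 2, 4 and 7. All BF10 and all aCSF1R values lay above the 3 control IgG values, while IL-10-Fc replicate 7 lay within the control range.

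Il1r2, the decoy receptor, ranged from 14.9 to 37.2 TPM in control IgG, 13.3 to 44.5 TPM in aCSF1R, 15.1 to 42.7 TPM in IL-10-Fc and 20.2 to 43.0 TPM in BF10. Il1r1, the signalling receptor, ranged from 12.99 to 35.0, 16.3 to 35.1, 23.5 to 27.5 and 15.3 to 35.3 TPM in the same order of groups. The 2 genes lie next to each other on chromosome 1, Il1r2 at 40074079 to 40125231 and Il1r1 at 40225080 to 40317257, 99.8 kb apart on the plus strand of GRCm38. Neither separated any pair of groups.

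Casp1, encoding caspase-1, had the highest TPM of the 9 in all 12 libraries. It ranged from 126 to 272 TPM in control IgG, 107 to 346 TPM in aCSF1R, 133 to 162 TPM in IL-10-Fc and 104 to 218 TPM in BF10. The highest value came from aCSF1R replicate 8, which also had the lowest Nlrp3 and the lowest macrophage marker sum, so the protease and the sensor stood at opposite ends in the same tumor. That tumor is a higher-sum library. With the groups held, Casp1 was higher in the higher-sum set by 0.91 on the log2 scale, while Nlrp3 stood at -0.85. In aCSF1R replicates 4 and 6 Casp1 was 107 and 130 TPM.

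Tests were made with limma on the log2(TPM + 1) scale, on which the change of low genes such as Nlrp3 comes out too small. The threshold asked for at least 1.5-fold change with an adjusted p (Benjamini-Hochberg, over all tested genes) below 0.05. The labels do not say more of how the tumors of a group were kept or processed, so the p-values measure the spread between these samples. With group as the only term, 0 of the 9 members passed in any of the 7 comparisons or in the test for any difference among the 4 groups. The share of all genes passing was also small: 0% for BF10 against control IgG, 0.00645% for IL-10-Fc against control IgG, 0.568% for aCSF1R against control IgG, 0% for BF10 against IL-10-Fc, 0.735% for BF10 against aCSF1R, 0.542% for IL-10-Fc against aCSF1R, 0.142% for the 6 tumors given IL-10 against the 6 without it, and 0.522% for any difference. In the same order, 1, 1, 1, 0, 2, 2, 2 and 2 members had an unadjusted limma p below 0.05. The shares of all tested genes at that cut were 1.51%, 1.44%, 3.46%, 0.271%, 4.26%, 3.56%, 4.43% and 3.00%. The lists of 88 genes lower in aCSF1R than in control IgG and of 114 higher in BF10 than in aCSF1R thus held none of the 9 members.

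Il1a was lower in aCSF1R than in control IgG by a log2 difference of -1.55 ± 0.34 (SE, limma adjusted p = 0.113). BF10 exceeded aCSF1R by 1.55 ± 0.34 (adjusted p = 0.0894) and IL-10-Fc exceeded it by 1.58 ± 0.34 (adjusted p = 0.104). All 3 values missed the threshold, although all 3 tumors of each group lay on the same side. BF10 and control IgG differed in Il1a by 0.0038 ± 0.34 (adjusted p = 0.996).

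For Nlrp3 the log2 difference was -0.76 ± 0.43 between aCSF1R and control IgG (limma adjusted p = 0.893), 1.54 ± 0.43 between BF10 and aCSF1R (adjusted p = 0.311) and 1.39 ± 0.43 between IL-10-Fc and aCSF1R (adjusted p = 0.592). For Il1b the difference between aCSF1R and control IgG was -0.85 ± 0.48 (adjusted p = 0.893). For Il18bp it was 0.63 ± 0.23 between BF10 and control IgG (adjusted p = 0.788), and for Il18 it was -0.58 ± 0.34 between IL-10-Fc and control IgG (adjusted p = 0.738). Differences from control IgG need the background: the median of all tested genes lay at 0.24 for aCSF1R, 0.35 for IL-10-Fc and 0.32 for BF10, and at 0.03, 0.0026 and 0.02 once libraries were scaled by the median of ratios. Against that median Il18bp stood at 0.31 in BF10 and Il1a at -1.78 in aCSF1R. Under the median of ratios Il18bp differed from control IgG by 0.27 for aCSF1R, 0.11 for IL-10-Fc and 0.26 for BF10, and Il1r1 turned from 0.28 to -0.07 in BF10.

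Counted by overlap alone, 2 members (Il1a and Nlrp3) were lower in every aCSF1R tumor than in every control IgG tumor and 1 (Il18bp) was higher, where 3.68% and 1.61% of all genes did so. The same 2 were higher in every BF10 tumor than in every aCSF1R tumor (4.33% of genes) and higher in every IL-10-Fc tumor than in every aCSF1R tumor (5.9% of genes). These comparisons share the aCSF1R tumors. Il18bp was higher in BF10 than in control IgG (2.36% of genes) and Il18 lower in IL-10-Fc than in control IgG (1.78% of genes). No member separated BF10 from IL-10-Fc, as 1.51% of genes did with BF10 lower and 0.619% with BF10 higher. None separated the 6 tumors with IL-10 from the 6 without, as 0.058% of genes did with lower and 0.206% with higher values in the tumors with IL-10.

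The library sets moved most members, in opposite directions. With the groups held, 59.2% of all tested genes differed between higher-sum and lower-sum libraries past the limma threshold, and 6 of the 9 members did. Il1b, Il1r2 and Casp1 were higher in the higher-sum set, by 0.89 (adjusted p = 0.00325), 0.96 (adjusted p = 0.00552) and 0.91 (adjusted p = 0.000612) on the log2 scale. Il1rn, Nlrp3 and Il1r1 were lower there, by differences of -1.46 (adjusted p = 2.99e-05), -0.85 (adjusted p = 0.000893) and -0.76 (adjusted p = 0.00472). Il1a stood at 0.45 (adjusted p = 0.0378, under the fold limit), Il18bp at -0.06 (adjusted p = 0.702) and Il18 at -0.00014 (adjusted p = 1).

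**Figure D2:**
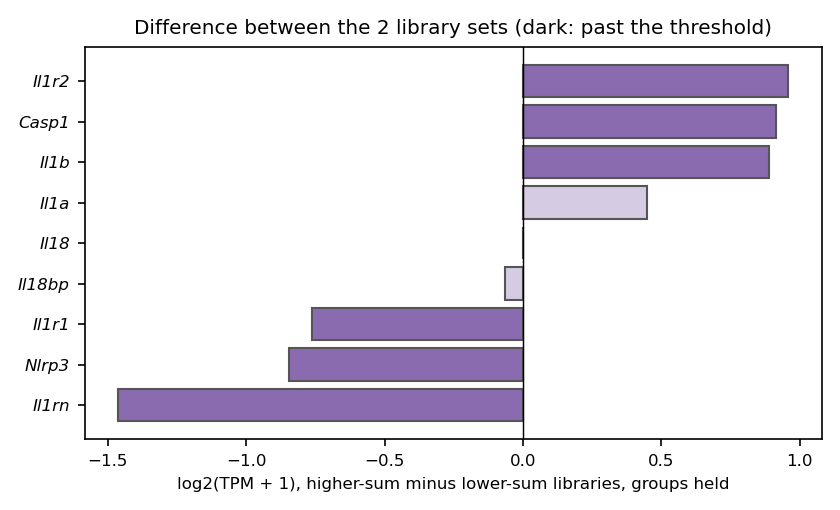
Difference of each gene between higher-sum and lower-sum libraries on the log2(TPM + 1) scale with the groups held (bars, from 0; dark bars passed the limma threshold). The bars run from -1.46 for Il1rn to 0.96 for Il1r2, with Il18 at 0.

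When the library set was added to the model as a term, some members passed. Il1a fell by 1.40 on the log2 scale in aCSF1R against control IgG (SE 0.24, limma adjusted p = 0.0105) and Nlrp3 fell by 1.04 (SE 0.23, adjusted p = 0.0473), which made 2 of 9 members, where 2.01% of all genes passed in either direction and 1.93% lower. Without aCSF1R replicate 8 the call of Il1a was lost (adjusted p = 0.0872), and Nlrp3 passed in 2 of 12 fits without 1 library each, with the adjusted p reaching 0.301 without control IgG replicate 5. Neither gene passed among the 7 lower-sum libraries alone, in which control IgG has 1 tumor: Il1a stood at -0.95 (adjusted p = 0.453) and Nlrp3 at -1.23 (adjusted p = 0.338).

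Against aCSF1R, 3 members rose in BF10 with the set term, where 2.82% of all genes passed and 2.77% were higher. They were Il1a by 1.55 (SE 0.23, limma adjusted p = 0.00317), Nlrp3 by 1.54 (SE 0.22, adjusted p = 0.00253) and Il1rn by 1.05 (SE 0.22, adjusted p = 0.0266). The same members rose in IL-10-Fc, where 2.13% of genes passed and 2.12% were higher: Il1a by 1.58 (adjusted p = 0.00372), Nlrp3 by 1.39 (adjusted p = 0.00636) and Il1rn by 1.02 (adjusted p = 0.0398). Il1a and Nlrp3 passed both comparisons in each of 12 fits without 1 library, and Il1rn in 7 of 12 for BF10 and 3 of 12 for IL-10-Fc. Without BF10 replicate 3, the neutrophil-rich tumor, the BF10 differences were 1.495 for Il1a (adjusted p = 0.0176), 1.32 for Nlrp3 (adjusted p = 0.00828) and 0.80 for Il1rn (adjusted p = 0.0869). Within the lower-sum libraries, where control IgG has 1 tumor, BF10 exceeded aCSF1R by 1.73 for Nlrp3 and by 1.42 for Il1a.

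For the 6 tumors given IL-10 against the 6 without it, Il1a (0.86, limma adjusted p = 0.0306) and Nlrp3 (0.94, adjusted p = 0.0157) passed with the set term, where 1.39% of genes did and 1.36% were higher. Il1a passed in 3 of the 12 fits without 1 library each and Nlrp3 in 9 of 12. The aCSF1R tumors are on the side without IL-10 in this comparison. With the set term 0 of 9 members passed in BF10 (0.00645% of genes) or in IL-10-Fc (0.0258% of genes) against control IgG. In each, 1 member, Il18bp, had an unadjusted limma p below 0.05, as did 3.75% of all genes for BF10 and 3.70% for IL-10-Fc. In the test for any difference among the 4 groups, where 2.12% of genes passed, the adjusted p was 0.00722 for Il1a, 0.00929 for Nlrp3 and 0.0837 for Il1rn. The call of Il1a was lost without aCSF1R replicate 6 (adjusted p = 0.072) or 8 (0.0714), and that of Nlrp3 without aCSF1R replicate 4 (0.0615) or 6 (0.0838), while Il1rn passed without BF10 replicate 3 (0.045). With all 12 libraries the other 6 members had values between 0.598 and 0.997.

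**Figure D3:**
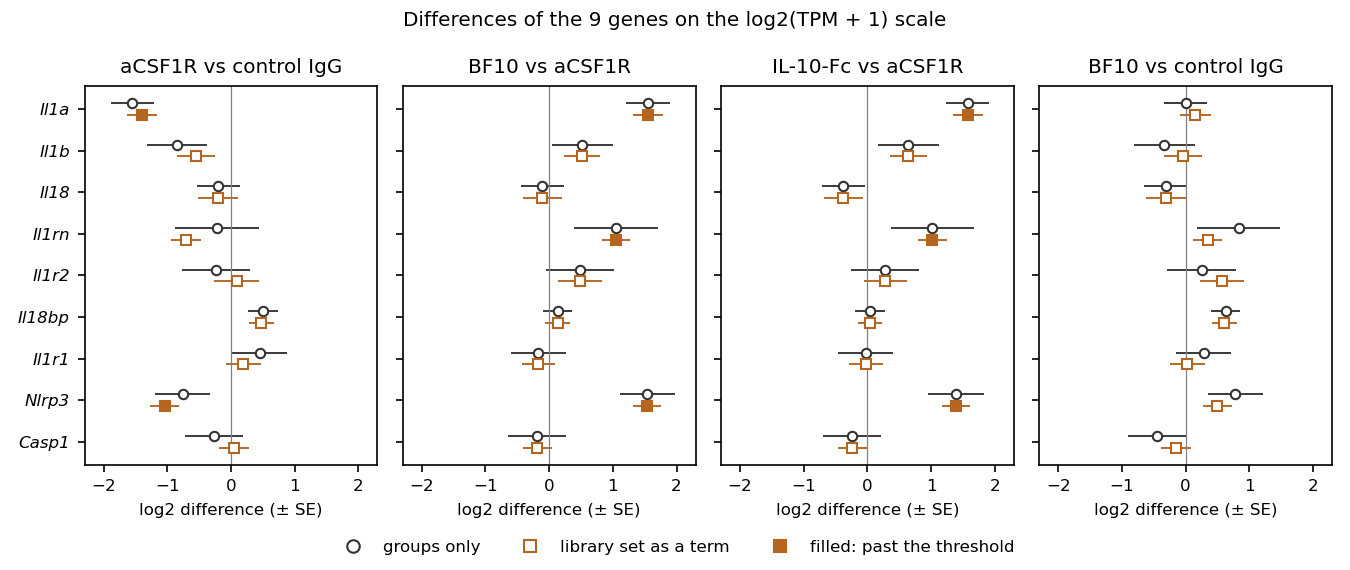
Log2 difference (± SE) of each gene in 4 comparisons, with group as the only term (circles) and with the library set as a further term (squares); filled symbols passed an adjusted p below 0.05 with at least 1.5-fold change. No circle is filled, and the filled squares are Il1a and Nlrp3 in the first 3 panels and Il1rn against aCSF1R.

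Ratios of 2 genes within a library are independent of how libraries are scaled. The log2 ratio of Il1a to Il1b was -3.36 ± 0.35 in control IgG, -4.27 ± 0.27 in aCSF1R, -3.12 ± 0.22 in IL-10-Fc and -3.02 ± 0.46 in BF10 (SD, n = 3 each). Its lowest values were those of the 3 aCSF1R tumors, -4.08, -4.16 and -4.58, so Il1a was lower there also relative to Il1b. An exact permutation test over the 4 groups gave p = 0.00942, or 0.26 after Benjamini-Hochberg adjustment over the 32 ratio tests, and p = 0.0195 with labels exchanged only within library sets. Pairwise, aCSF1R differed from control IgG by -0.91, BF10 from aCSF1R by 1.25 and IL-10-Fc from aCSF1R by 1.15, each with a two-sided exact permutation p of 0.1, the smallest that 3 against 3 tumors allow.

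The log2 ratio of Il18bp to Il18 was 0.15 ± 0.31 in control IgG, 0.88 ± 0.32 in aCSF1R, 1.31 ± 0.27 in IL-10-Fc and 1.13 ± 0.51 in BF10 (SD, n = 3 each). All 9 treated tumors, at 0.63 to 1.64, lay above the 3 control IgG tumors, at -0.06 to 0.51. Each treated group against control IgG gave a two-sided exact permutation p of 0.1 (adjusted 0.32), and the exact permutation test over the 4 groups gave p = 0.0218 (adjusted 0.26), or p = 0.0762 with labels exchanged within library sets. BF10, IL-10-Fc and aCSF1R share the control tumors here, and control IgG holds 2 of the 5 higher-sum libraries.

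The ratio of Il1rn to Il1b, antagonist to agonist, followed the library sets. Its log2 value was -4.70 ± 0.32 in the 5 higher-sum and -2.15 ± 0.52 in the 7 lower-sum libraries, and the exact permutation test over the 4 groups gave p = 0.714. The ratio of the decoy Il1r2 to the receptor Il1r1 was 1.20 ± 0.30 against -0.55 ± 0.66 on the log2 scale in the same sets, with an exact permutation p of 0.835 over the groups.

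**Figure D4:**
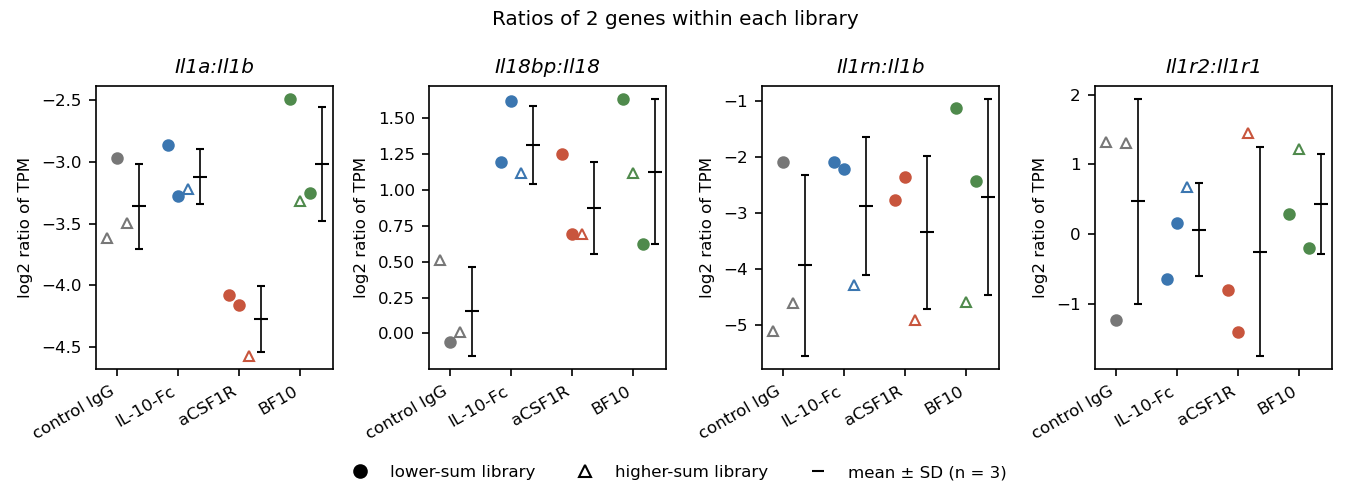
Log2 ratio of TPM of 2 genes within each library, by group; circles are lower-sum and open triangles higher-sum libraries, with the mean and SD of 3 tumors. Il1a:Il1b is lowest in the 3 aCSF1R tumors and Il18bp:Il18 lowest in the 3 control IgG tumors, while Il1rn:Il1b and Il1r2:Il1r1 split by library set.

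The rest of the pathway was described from lists of other IL-1 family ligands, receptors, inflammasome and pyroptosis genes, receptor signalling genes and NF-kB targets. Of the inflammasome and pyroptosis list, 15 of 20 genes were expressed enough to test, and with group as the only term 1 passed, Pycard, the adaptor that links sensors such as NLRP3 to caspase-1. Pycard (chromosome 7, 127989708 to 127993867, minus strand, GRCm38) was 28.7, 20.1 and 35.2 TPM in control IgG replicates 4, 5 and 7, and 4.71, 3.66 and 4.63 TPM in aCSF1R replicates 4, 6 and 8. It was 18.7, 22.5 and 23.1 TPM in IL-10-Fc replicates 2, 4 and 7, and 30.03, 30.1 and 23.6 TPM in BF10 replicates 3, 6 and 7. The aCSF1R tumors thus held Pycard at a level apart from all others.

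Pycard fell by 2.41 on the log2 scale in aCSF1R against control IgG (SE 0.26, limma adjusted p = 0.00158), and was higher in BF10 than in aCSF1R by 2.44 (adjusted p = 0.00171) and in IL-10-Fc by 2.07 (adjusted p = 0.00584). It passed in each of 12 fits without 1 library for the first 2 comparisons. For IL-10-Fc against aCSF1R it missed the threshold in 1 of 12, without IL-10-Fc replicate 4 (adjusted p = 0.0564). Among the lower-sum libraries alone the difference between aCSF1R and control IgG was -2.03 (adjusted p = 0.0715). The macrophage marker sum was lower in the same aCSF1R tumors, and its part in the level of Pycard was not tested.

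With the library set as a term, 5 of the 15 were higher in BF10 than in aCSF1R (2.77% of all genes) and the same 5 were higher in IL-10-Fc than in aCSF1R (2.12%), namely Pycard, the sensors Nlrp1b, Naip2 and Aim2, and P2rx7, the ATP-gated channel upstream of NLRP3. In the same fit all 12 macrophage markers were higher in BF10 and in IL-10-Fc than in aCSF1R, and their part in these calls was not tested. In aCSF1R against control IgG, P2rx7 fell by 1.70 (limma adjusted p = 0.000764) and Pycard fell by 2.32 (adjusted p = 6.91e-05). P2rx7 was 5.14, 15.4 and 5.72 TPM in control IgG replicates 4, 5 and 7, and 5.19, 4.40 and 0.640 TPM in aCSF1R replicates 4, 6 and 8, so its values overlapped before the sets were held. The list median against control IgG in aCSF1R was -0.43, beside 0.0068 over all genes tested. For Casp1 the difference in the same fit was 0.04 (adjusted p = 1).

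**Figure D5:**
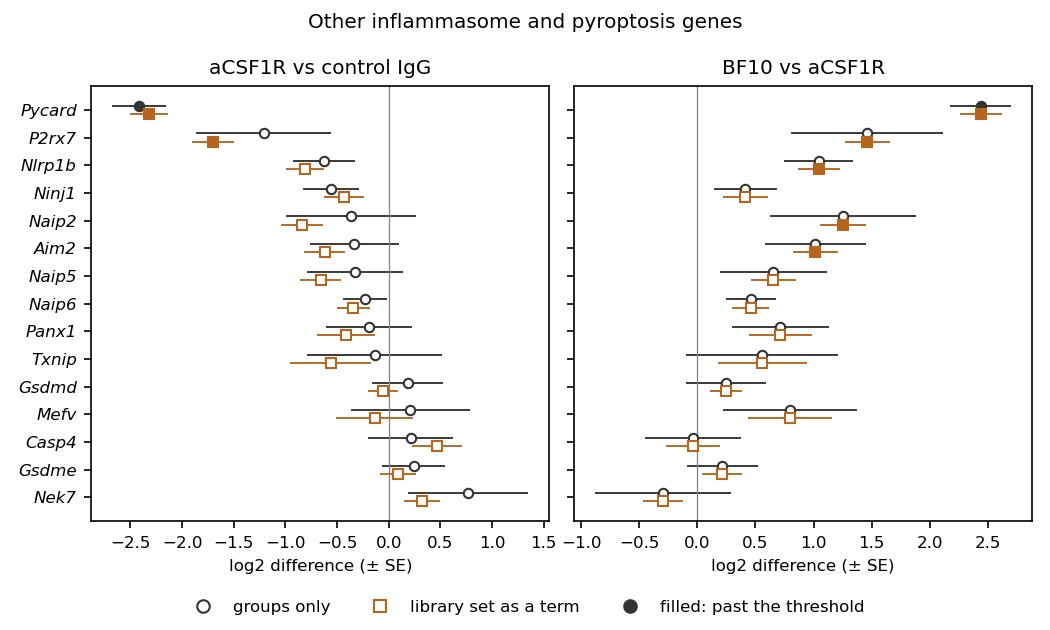
Log2 difference (± SE) of the 15 tested genes of the inflammasome and pyroptosis list in aCSF1R against control IgG and in BF10 against aCSF1R, with group as the only term (circles) and with the library set as a further term (squares); filled symbols passed the threshold. Pycard is filled in both fits in both panels, at -2.41 and 2.44 with group as the only term.

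Of the other lists, 2 of 6 ligands, 6 of 8 receptors, 16 of 16 signalling genes and 14 of 15 NF-kB targets could be tested, and with group as the only term 0 of them passed against control IgG or aCSF1R. With the set term the 1 gene to pass there was Nfkbiz, which encodes the NF-kB cofactor IκBζ and is an IL-1 response gene. Nfkbiz rose by 0.90 (limma adjusted p = 0.0406) in aCSF1R against control IgG, a call whose fits without 1 library are not reported here. With group as the only term it rose by 1.11 (limma adjusted p = 0.563). It was 19.4, 26.9 and 15.7 TPM in control IgG replicates 4, 5 and 7, and 55.1, 51.3 and 31.7 TPM in aCSF1R replicates 4, 6 and 8. Nfkbiz was 37.8, 36.8 and 32.2 TPM in IL-10-Fc replicates 2, 4 and 7, and 35.9, 20.5 and 49.8 TPM in BF10 replicates 3, 6 and 7. With the set term it exceeded control IgG by 0.57 in IL-10-Fc and by 0.48 in BF10, and neither passed. The target list had a median of 0.52 in aCSF1R against control IgG with the set term, beside 0.0068 over all genes, with 11 of its 14 genes above 0. In the same fit its median against control IgG was 0.55 in IL-10-Fc and 0.45 in BF10. In each of these, 13 of the 14 genes were above 0, and the medians over all genes were 0.10 and 0.07.

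The genes most like each member, by Pearson r of log2(TPM + 1) over the 12 libraries centred within library sets, were described without a test. For Il1a they were Ms4a6b (r = 0.978) and Prdx5 (r = 0.971). For Nlrp3 the inflammasome sensor Naip2 (r = 0.979) was among them. For Il1rn they were Smpdl3a and Ms4a7 (r = 0.971 each). For Il1r2 the first was Il1f9 (r = 0.943), an older symbol of the IL-1 family ligand gene Il36g, and the second Mrgpra2b (r = 0.933).

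For the remaining members the nearest genes were Xlr (r = 0.892) and Gngt1 (r = 0.877) for Il1b, and 1110032A03Rik (r = 0.955) and Gm5127 (r = 0.932) for Il18. Ly6a (r = 0.909) was among the nearest for Il18bp. The nearest genes were D230025D16Rik (r = 0.952) and Impact (r = 0.939) for Il1r1, and Med31 (r = 0.936) and Emc2 (r = 0.930) for Casp1. Among the members themselves Il1a, Il1rn and Nlrp3 varied together, with r of 0.914 between Il1a and Il1rn, 0.903 between Il1rn and Nlrp3 and 0.875 between Il1a and Nlrp3. Il1a and Casp1 gave r = -0.319. All points share the 12 libraries and their group differences.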

How the data were processed

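The data are 12 bulk RNA-seq libraries of 4T1 tumors, 3 per group. In the methods, TRIzol RNA and stranded mRNA libraries were used, with Illumina sequencing and alignment to mm10. The submitters' processing notes name STAR 2.7.5a, RSEM 1.3.3 and DESeq2 1.28.0. The authors deposited FPKM values for 55401 genes in 12 columns, all matched to samples by name (0 unmatched). A further 4 tables hold the authors' own comparisons (log2 fold changes, p-values), which were not used. The mean normalized count in them, a score per gene deposited by the authors, lay between 147 for Nlrp3 and 8905 for Casp1 among the 9 members. No count model was run on FPKM, and the sampling error of each value is unknown.

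FPKM was brought to a common total per library (TPM), genes with TPM of at least 1 in at least 3 libraries were kept, and log2(TPM + 1) was fitted with limma 3.58.1 (eBayes with trend, R 4.3.3), with 1 mean per group over all 12 libraries (8 residual degrees of freedom). The fold changes are on the log2(TPM + 1) scale. Ratios were tested with exact permutation tests. Scripts were tested on simulated data. The library set boundary was an FPKM sum of 700000. The members, the lists and the library set term were chosen with earlier results of these data known. All 9 members are named, and of the lists each gene that passed in a comparison with aCSF1R or control, at most 5 per list and comparison, with the 2 genes most like each member, of which some are not reported here. Replicate numbers did not pair the samples.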

Additional observations from a re-analysis of the deposited data

How the results depend on the processing

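The first count given for each comparison has group as the only term, where 0 of 9 members were called, and each count after it names its setting. Sample weights give the libraries unequal influence on the fit. The weight was 61.7 for IL-10-Fc replicate 4, while the next highest was 3.81 (aCSF1R replicate 4) and the lowest 0.074 (aCSF1R replicate 8). The counts with sample weights, of genes and of members, thus lean on 1 tumor. BF10 against control IgG called 0 genes, but 1 with the library set as a term, 2 with the log2 FPKM sum as a covariate, 1 within lower-sum libraries, 8967 with sample weights (6 of 9 members), 1 with the replicate block and 1 at an adjusted p below 0.1. IL-10-Fc against control IgG called 1 gene, but 0 without rescaling FPKM, 0 with a pseudocount of 0.1, 0 with a stricter filter, 0 with only the groups compared and 0 with the replicate block, 2 with no filter, 2 within lower-sum libraries, 4 with the set term, 3 with the set term and median of ratios scaling, and 9274 with sample weights (7 members).

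aCSF1R against control IgG called 88 genes, but 136 with median of ratios scaling, 312 with the set term (2 members), 398 with the FPKM sum (2 members), 348 with the set term and median of ratios (2 members), 34 within lower-sum libraries, 4 with only the groups compared, 2 with the replicate block and 9898 with sample weights (5 members). BF10 against IL-10-Fc called 0 genes, but 1 each with median of ratios, no filter, lower-sum libraries, only the groups compared, the replicate block, and the set term with median of ratios, and 37 with sample weights. BF10 against aCSF1R called 114 genes, but 437 with the set term (3 members), 521 with the FPKM sum (2 members), 428 with the set term and median of ratios (2 members), 465 with sample weights (2 members), 0 with only the groups compared and 1 with the replicate block. With median of ratios it called 140 genes (0.903%) and 1 member, Nlrp3. At an adjusted p below 0.1 it called 1 member, Il1a, and the share of all genes at that cut is not reported here. Within lower-sum libraries the Nlrp3 difference was 1.73. IL-10-Fc against aCSF1R called 84 genes, but 330 with the set term (3 members), 348 with the FPKM sum (2 members), 279 with the set term and median of ratios (2 members), 1970 with sample weights (5 members), 12 with only the groups compared and 1 with the replicate block.

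The tumors with IL-10 against those without called 22 genes, but 9 with no filter, 216 with the set term (2 members), 186 with the FPKM sum (2 members), 138 with the set term and median of ratios (1 member), 1 within lower-sum libraries, 3465 with sample weights (2 members), 0 with the replicate block and 41 at an adjusted p below 0.1. Any difference among the groups called 81 genes, but 329 with the set term (2 members), 359 with the FPKM sum (2 members), 317 with the set term and median of ratios (2 members), 40 within lower-sum libraries, 12813 with sample weights (9 members) and 0 with the replicate block. The set term with median of ratios, and the set term without 1 library, were chosen after seeing the data. The cause of these changes was not tested.

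The replicate block used 8 libraries whose number recurs, and same-numbered samples correlated at -0.663 to 0.417 in their deviations from group means (7 pairs), so the numbers do not pair the samples.

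Over the fits without 1 library, with and without the set term, the genes called ranged from 0 to 1 for BF10 against control IgG, 0 to 3 for IL-10-Fc against control IgG, 55 to 377 for aCSF1R against control IgG, 0 to 1 for BF10 against IL-10-Fc, 54 to 449 for BF10 against aCSF1R, 24 to 427 for IL-10-Fc against aCSF1R, 2 to 217 for tumors with IL-10 and 21 to 341 for any difference. Members called ranged from 0 to 2, 0 to 3, 0 to 3, 0 to 2 and 0 to 3 for aCSF1R against control IgG, BF10 and IL-10-Fc against aCSF1R, tumors with IL-10 and any difference. With group as the only term, Il1a passed against aCSF1R only without control IgG replicate 5 (adjusted p = 0.0350 against control IgG, 0.0438 for BF10 and 0.0474 for IL-10-Fc).

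Differences between aCSF1R and control IgG that turned sign were 0.068 for Nlrp3 with the replicate block, 0.61 and 0.86 for Il1rn with sample weights and the replicate block, 0.28 and 0.13 for Il1rn without aCSF1R replicate 8 and without control IgG replicate 5 (-0.93 with the set term and without that library), and 0.026 for Il1b within lower-sum libraries. The Il1rn:Il1b ratio in tumors with IL-10 against those without differed by 0.85 with an exact permutation p of 0.262, or 0.04 with labels exchanged within sets, and by 0.52 to 1.21 without 1 library. Il1r2:Il1r1 differed by 0.14 and turned to -0.05 without BF10 replicate 6, -0.04 without aCSF1R replicate 4, -0.16 without aCSF1R replicate 6 and -0.13 without control IgG replicate 5, up to 0.41 without aCSF1R replicate 8. In the same comparison Il18bp:Il18 differed by 0.71 and Il1a:Il1b by 0.75 (exact permutation p of 0.0325 and 0.026, adjusted 0.26 each), within lower-sum libraries by 0.64 and 0.77 (exact permutation p of 0.2 and 0.114), and without 1 library they ranged from 0.59 to 0.85 and from 0.60 to 0.92. The exact permutation test over the groups for Il18bp:Il18 gave p = 0.0762 within sets.

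These results are limited by 3 tumors per group, by library sets that differ in more genes than the treatments do, and by control IgG holding 1 lower-sum library. Sampling error per gene is unknown, since FPKM holds no counts, and it weighs most on Nlrp3, the lowest member. Transcript length enters the levels of different genes through the authors' gene models.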
